A study of Mus musculus with 144 samples.

Results

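Microglia sorted from retinas whose optic nerve had not been crushed were described cell by cell, as the uncrushed baseline of the series. The series deposited 1 sample per well, into which 1 fluorescent cell had been sorted. Wells from uncrushed retina were kept when they held at least 50000 reads recovered from the deposited values, and when S100a8 and S100a9, which are neutrophil markers, did not both reach 1000 reads per 1000000 assigned reads (RPM). This left 38 of the 54 uncrushed wells, of 144 wells in the whole series. They came from 3 plates, with 10 wells kept on plate 1, 15 on plate 2 and 13 on plate 3, out of 18 per plate. The depth minimum fell in a gap, since the shallowest kept wells had 60079 and 99643 reads and the 15 wells below it had 970 to 14205. The S100a8 and S100a9 rule dropped 1 of the wells above the minimum, and the highest kept values were 205 RPM for S100a8 and 212 RPM for S100a9.

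All animals were C57BL/6 mice of the genotype Iba1-EGFP, in which green fluorescence follows the Iba1 promoter, and were 20 to 22 months old. The uncrushed animals are labelled as having had no treatment. Wells taken 2 and 4 days after crush of the optic nerve, from mice of the same genotype, strain and age, are used here only to place the uncrushed values. Iba1 is made by microglia and by other macrophages, so the fluorescence that guided the sort does not separate them. No label names an animal, so the 38 wells count as 1 sample, the SD given is that over wells, and no test across wells was made.

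Microglia are the resident macrophages of the retina and brain. They depend on signalling through the receptor Csf1r, survey the tissue with motile processes, make the complement component C1q that tags synapses and debris, and digest what they engulf in lysosomes. In the adult retina they are found mainly in the plexiform layers, where synapses lie.

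Promoters are shown for genes around which the results turn. Cst3, Tmsb4x, C1qb and Ctss were found in every kept well, C1qc shares a gene cluster with C1qb, and Jun was high in some wells and near 0 in others. Each run covers 250 bases before and 50 after the start of the gene, from RefSeq on GRCm38.p6, in the direction of the gene. Capitals mark GAGGAAGT, the letters of a PU.1 motif, on either strand. PU.1 is a transcription factor of the macrophage lineage.
Cst3: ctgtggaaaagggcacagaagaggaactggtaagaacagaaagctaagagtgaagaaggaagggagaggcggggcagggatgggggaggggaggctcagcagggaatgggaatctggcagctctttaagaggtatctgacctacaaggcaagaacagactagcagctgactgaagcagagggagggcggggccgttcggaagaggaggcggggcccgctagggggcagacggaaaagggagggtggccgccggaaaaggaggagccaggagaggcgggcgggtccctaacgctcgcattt
Tmsb4x: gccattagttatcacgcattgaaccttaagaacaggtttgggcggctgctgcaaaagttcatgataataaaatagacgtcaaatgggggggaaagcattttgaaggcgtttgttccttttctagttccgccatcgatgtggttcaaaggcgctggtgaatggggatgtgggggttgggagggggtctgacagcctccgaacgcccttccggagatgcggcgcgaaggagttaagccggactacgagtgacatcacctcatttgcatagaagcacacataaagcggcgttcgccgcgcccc
C1qb: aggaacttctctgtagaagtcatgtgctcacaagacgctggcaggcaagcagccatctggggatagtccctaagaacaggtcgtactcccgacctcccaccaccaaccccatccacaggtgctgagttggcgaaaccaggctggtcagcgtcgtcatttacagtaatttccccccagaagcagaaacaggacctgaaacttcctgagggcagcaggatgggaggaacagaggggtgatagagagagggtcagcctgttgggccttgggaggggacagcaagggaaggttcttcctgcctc
Ctss: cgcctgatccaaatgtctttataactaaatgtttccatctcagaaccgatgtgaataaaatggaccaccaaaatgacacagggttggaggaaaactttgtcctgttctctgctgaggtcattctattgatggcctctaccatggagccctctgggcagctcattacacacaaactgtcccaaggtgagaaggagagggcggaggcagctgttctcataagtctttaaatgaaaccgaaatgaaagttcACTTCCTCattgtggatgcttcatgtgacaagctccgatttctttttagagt
C1qc: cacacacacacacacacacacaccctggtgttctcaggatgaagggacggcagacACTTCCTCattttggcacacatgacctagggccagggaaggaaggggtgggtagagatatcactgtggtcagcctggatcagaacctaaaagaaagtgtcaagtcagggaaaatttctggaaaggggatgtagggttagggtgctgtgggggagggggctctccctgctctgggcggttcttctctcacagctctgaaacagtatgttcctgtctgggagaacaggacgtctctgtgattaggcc
Jun: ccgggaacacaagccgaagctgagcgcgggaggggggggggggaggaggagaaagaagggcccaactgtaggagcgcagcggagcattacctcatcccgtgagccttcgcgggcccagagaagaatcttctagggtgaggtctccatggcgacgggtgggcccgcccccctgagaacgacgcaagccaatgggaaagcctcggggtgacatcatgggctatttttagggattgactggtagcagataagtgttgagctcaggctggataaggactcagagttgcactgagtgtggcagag
In that order they lie at chr2:148875463-148875762 (minus strand), chrX:167209169-167209468 (minus), chr4:136886151-136886450 (minus), chr3:95526536-95526835 (plus), chr4:136892865-136893164 (minus) and chr4:95052173-95052472 (minus). Of the 24 highest named genes, 18 matched a promoter in the RefSeq table by symbol. GAGGAAGT occurred in 2 of the 18, Ctss and C1qc, and in 3.2% of all 32851 promoters of this length. TGACTCA or TGAGTCA, the AP-1 letters, occurred in 0 of the 18 and in 5.2% of all promoters. The GC box GGGCGG occurred in 12 of the 18, or 66.7%, and in 35.7% of all promoters. These are matches of letters, with both strands searched, and not measured binding.

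The kept wells differed widely in depth and in how many genes they showed. Recovered reads ran from 60079 to 2347721 per well with a median of 494741. A gene was called found in a well at 10 or more reads, and by that count a well held 179 to 4632 genes with a median of 1003. When 50000 reads were drawn from each well, the genes with any read numbered 566 to 4244 with a median of 1184, so wells of equal depth still differed. The medians of this measure were 1248 on plate 1, 1142 on plate 2 and 1605 on plate 3.

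**Figure D1:**
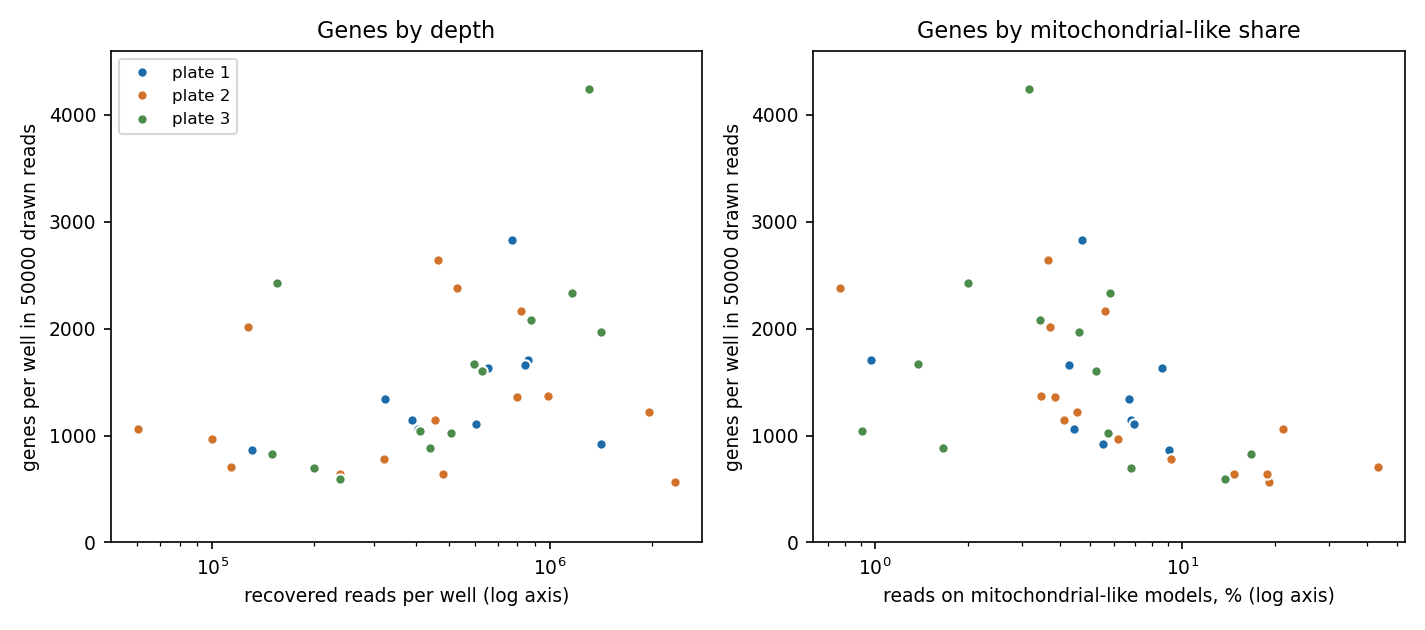
Genes with any read in 50000 drawn reads per well (vertical axes), against recovered reads per well (left, log axis) and against the percent of reads on mitochondrial-like nuclear models (right, log axis), for 38 uncrushed wells coloured by plate. Genes per well run from 566 to 4244, and the well with the largest mitochondrial-like share, 43.4%, had 702 genes. The deepest well, at 2347721 reads, had the fewest genes, 566.

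The number of genes moved with mitochondrial sequence. The deposited values include no gene of the mitochondrial genome, so these could not be analysed. Counted instead were 15 nuclear gene models that are at least 90% identical to a mitochondrial transcript over 100 bases or more. They carried a median of 5.38% of a well's reads, from 0.768% to 43.4%. Gm28437, which matches mt-Co3, had 63.1 to 149509 RPM with a median of 14855, and Gm10925, which matches mt-Atp6, had 691 to 74020 RPM with a median of 9707. Both were found in all 38 wells. Across the 38 wells the share on these models and the genes in drawn reads had a Spearman correlation of -0.66, and genes in drawn reads and recovered reads one of 0.40. Both members of each pair come from the same library, so these correlations are descriptions. When levels were scaled to reads outside these models and ribosomal protein genes, an alternative chosen after seeing the data, the 24 leading named genes were the same 24, and 787 genes had a plate difference as counted below, against 773.

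Few genes were found in nearly every cell. Of 55364 genes in the table, 10949 were found in at least 1 kept well, 4037 of them in exactly 1 well. Only 1232 were found in at least 25% of wells, 479 in at least 50%, 22 in at least 90% and 12 in all 38. The 12 comprised Cst3, Tmsb4x, Ctss, Fth1 and C1qb, together with the mitochondrial-like models Gm28437, Gm10925 and Gm29216, the 7SL RNA genes Rn7s1 and Rn7s2, and the unnamed models Gm47299 and Gm47295. The 1232 genes, called the compared genes below, had a median of 3.77 for their mean log2(RPM + 1) and a median SD over wells of 3.33. Without the 15 wells of plate 2, 55 genes were found in at least 90% of wells, and in the 29 wells with 3 or more of the microglia markers described below, 50 were. Of the compared genes, 624 were protein coding and 543 were of pseudogene types.

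Cst3, which encodes the secreted protease inhibitor cystatin C, led the profile of the uncrushed microglia. It had 5170 RPM in the lowest well, a median of 66729 RPM and 245556 RPM in the highest well. Its mean log2(RPM + 1) was 15.73 ± 1.19 (SD, n = 38 wells), and it was the highest named gene in 30 of the 38 wells. Tmsb4x, the actin-binding peptide thymosin beta 4, followed with 2653, 16659 and 64079 RPM as its lowest, median and highest values and the smallest SD of the leading genes, 13.88 ± 0.90. The gap between Cst3 and Tmsb4x was larger than the SD of either gene, while from Tmsb4x on each of the 24 leading genes differed from the next by less than the SD of either.

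**Figure D2:**
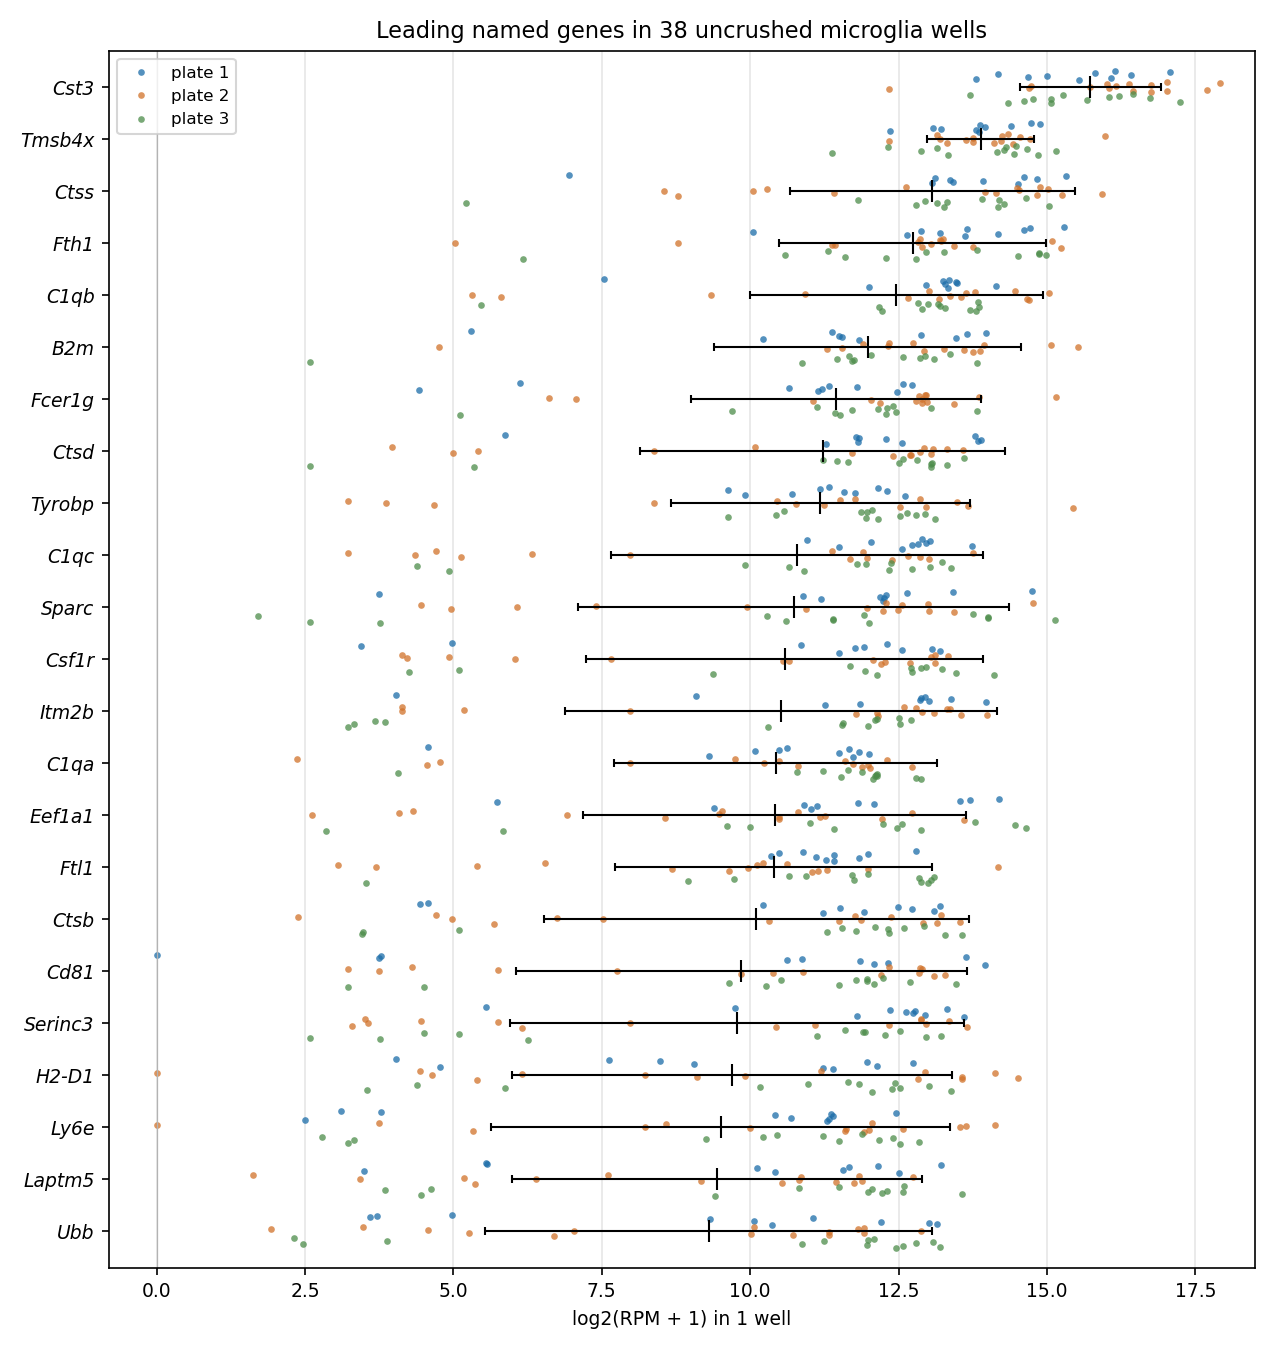
Log2(RPM + 1) in each of 38 uncrushed wells (points, coloured by plate) for 23 of the 24 named genes with the highest mean, with the mean (tick) and SD (bar). Cst3 and Tmsb4x are high in all wells, whereas most genes from B2m down are high in most wells and at a much lower level in the rest.

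Levels of different genes were compared per length, as log2(FPKM + 1). On that scale the order was Cst3 at 15.39, Tmsb4x at 13.42, Ctss at 12.63, C1qb at 12.34, B2m at 12.20, Tyrobp at 11.76, Fcer1g at 11.65 and Fth1 at 10.95. The 24 highest named genes per length and per read shared 21 members, with Selenop, Ctsz and Sh3bgrl3 entering per length. Values below are on the RPM scale, where a gene is compared with itself across wells, unless FPKM is named.

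Several cathepsins were abundant beside it. Cystatin C inhibits those of the cysteine protease class. Ctss, the lysosomal cysteine protease cathepsin S, had 36.2 RPM in the lowest well, a median of 15460 and 62290 in the highest, a mean of 13.07 ± 2.40. Ctsd, an aspartic protease, was found in 34 of 38 wells with a median of 5923 RPM, and Ctsb in 32 with a median of 3500 RPM. Below them, Ctsz was found in 27 wells, Ctsl in 23, Ctsh in 16, Ctsa in 14 and Ctsc in 14. Of 15 cathepsins and cystatins, 9 were found in at least 25% of wells, and Ctse had 0 reads in all wells. Part of Ctsd lies under the readthrough model Gm49369, which shares 808 exon bases with it on the same strand, so their reads may be split. Lysosomal membrane and hydrolase genes were all detected, 21 of 21 in at least 1 well and 16 in at least 25%. A well held 0 to 20 of the 21, with a median of 9, so lysosomal genes were found unevenly from well to well.

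The 3 chains of complement C1q were all among the leading genes. C1qb had 38.8, 9814 and 33390 RPM as its lowest, median and highest values, C1qc 8.39, 4079 and 13730 RPM, and C1qa 4.15, 3136 and 7553 RPM. The chains assemble in equal parts in the protein, and their transcripts ranked C1qb, C1qa and C1qc per length, at 12.34, 10.37 and 9.85 on the log2(FPKM + 1) scale. The order of C1qa and C1qc is not settled by these wells. Their SDs over wells were 2.72 and 3.14 as log2(RPM + 1), and C1qc had the higher median by RPM. The chains followed each other only in part from well to well. Spearman correlations over the 38 wells were 0.50 for C1qa with C1qb, 0.35 for C1qb with C1qc and 0.24 for C1qa with C1qc, although 31 wells held both C1qa and C1qc. In drawn reads they were 0.51, 0.35 and 0.30. All of these lay above the median of 0.06 over all pairs of compared genes, few of which exceed 0.45. The rest of the complement list was sparse. Itgam, a chain of a complement receptor, was found in 10 wells, Itgb2 and C5ar1 in 9 each and C3ar1 in 7. C3, Cfp, Serping1 and Cd59a were found in 0 wells, and the highest C3 value was 16.6 RPM.

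The signalling adaptors of Fc and Trem2 receptors were found in nearly all wells, the receptors themselves in fewer. Fcer1g had 20.5 RPM in the lowest well, a median of 4837 and 36405 in the highest, and Tyrobp had 8.39, 3612 and 44318 RPM. Tyrobp was found in 37 of 38 wells and Fcer1g in 34, against 21 for Trem2, 23 for Fcgr3, 20 for Fcgr2b, 8 for Fcgr1 and 3 for Fcgr4. The adaptors were not matched to each other in level, with a Spearman correlation of 0.16 over the 38 wells. Of the downstream signalling genes, Syk was found in 6 wells and Plcg2 in 7.

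Genes that mark microglia were present across the wells, but unevenly. Csf1r was found in 31 wells with a median of 4411 RPM and Sparc, a secreted matrix protein, in 32 with a median of 4387 RPM. The purinergic receptor gene P2ry12 was found in 22 wells, or 57.9% (95% exact Clopper-Pearson interval 40.8 to 73.7%), with a median of 3458 RPM where found and at most 117 RPM in the other wells. Siglech was found in 28 wells, Cx3cr1 in 25, Aif1, which encodes Iba1, in 24, Tmem119 in 16, Sall1 in 7 and Fcrls in 3. All 20 identity genes were found in at least 1 well, 15 in at least 25% and 0 in at least 90%, and a well held 1 to 18 of them with a median of 10. Intervals here cover counting error over wells only. Reads of Selenop may be shared with Ccdc152, which overlaps it by 439 exon bases on the other strand and followed it with a Spearman correlation of 0.90.

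By the 12 markers used to check the label, 29 of 38 wells held at least 3 microglia markers, or 76.3% (59.8 to 88.6%), 17 held at least 8 and 1 held all 12. The 9 wells with fewer than 3 had 60079 to 530425 reads and 5170 to 110409 RPM of Cst3. The number of markers in a well went with the genes in drawn reads, with a Spearman correlation of 0.73, and with recovered reads, at 0.65. Well A6 of plate 2 stood apart, with 2 of 12 microglia markers although it held 2379 genes in drawn reads. Its highest named genes were Tmsb4x at 19102 RPM, the lysozyme gene Lyz2 at 14080, Malat1 at 8890, Actb at 7466 and Fcer1g at 7068, whereas C1qb had 54.7 RPM there. It was kept, and without it the 24 leading genes were the same 24.

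Transcription factors of the microglia and macrophage lineage were found in a minority of wells. Of 12 lineage transcription factors, 12 were found in at least 1 well and 5 in at least 25%: Irf8 in 13 wells, Irf5 in 13, Spi1, which encodes PU.1, in 12, Mef2a in 11 and Mef2c in 11. Where found, Irf8 had a median of 1114 RPM and Spi1 of 478 RPM. Irf8 and Spi1 were each at a low level in most wells, with medians over all 38 wells of 3.85 and 2.45 RPM.

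Antigen presentation was lopsided. B2m, the light chain of MHC class I, was found in 36 of 38 wells with 5, 5669 and 47005 RPM as lowest, median and highest values, and the heavy chain gene H2-D1 in 33 wells with a median of 2375 RPM. All 13 class I genes were found in at least 1 well and 8 in at least 25%, although near-identical sequence among the H2 genes makes their single values uncertain. Of 8 class II genes, 7 were found in at least 1 well and only H2-DMa, a loading factor, in at least 25%. The invariant chain gene Cd74 was found in 5 wells and the class II chain genes H2-Ab1 in 3, H2-Aa in 2 and H2-Eb1 in 1. The class II regulator Ciita had 0 reads in all wells, and the summed level of the class II list ran from 0 to 10464 RPM with a median of 10.7.

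Genes linked with damage-associated microglia included both abundant and nearly absent members. Fth1, B2m, Ctsd, Tyrobp and Ctsb, which belong to that list, were among the 24 leading genes of the uncrushed wells. Spp1 was found in 2 wells and did not exceed 22.1 RPM, Lgals3 7.87 RPM and Gpnmb 0.213 RPM in any well, and Igf1 had 0 reads. Apoe, a lipid carrier, was found in 6 of 38 wells, or 15.8% (6.02 to 31.3%), with a median of 9138 RPM where found and at most 25 RPM in the other 32. Its highest value, 43457 RPM, was in well C3 of plate 3, which also held 3 of 8 border macrophage markers and 8 of 12 microglia markers. This well was named after its values were seen. Cst7 was found in 1 well, at 5937 RPM.

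Cytokine transcripts were rare. Of 11 cytokine genes, 8 were found in at least 1 well and 0 in at least 25%. Il1a was found in 9 wells with a highest value of 3578 RPM, Il1b in 5, Tnf in 2 with a highest value of 1150 RPM, and Il10, Il1rn and Igf1 in 0. Gpr84, a receptor for medium-chain fatty acids, was found in 5 wells and did not exceed 732 RPM. Of 14 chemokine genes, 11 were found in at least 1 well, with Ccl6 in 20 wells, Ccl12 in 10, Ccl3 in 9 and Ccl4 in 7. Of 18 proliferation genes, 14 were found in 0 wells, and Mki67 did not exceed 1.42 RPM or Top2a 15.3 RPM in any well. The other 4 were Pcna, found in 4 wells, Cdk1 and Hmgb2, found in 2 each, and Stmn1, found in 1, and the highest Cdk1 value was 7321 RPM.

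Immediate early genes, which encode transcription factors and feedback proteins that are induced quickly by many stimuli, were high in some wells and near 0 in the others. Jun, a subunit of AP-1, was found in 12 of 38 wells, or 31.6% (17.5 to 48.7%), with a median of 5394 RPM where found, a highest value of 24358 RPM and at most 99.9 RPM elsewhere. Its partner Fos was found in 12 wells with a median of 7480 RPM where found, Junb in 13 with 4658 RPM and Egr1, a zinc finger factor, in 11 with 9966 RPM. The RNA-destabilizing protein gene Zfp36 and the antiproliferative gene Btg2 were found in 11 wells each, with medians of 5036 and 3790 RPM where found. Because 10 reads stand for fewer RPM in a deeper well, some wells counted as found lay below these levels.

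**Figure D3:**
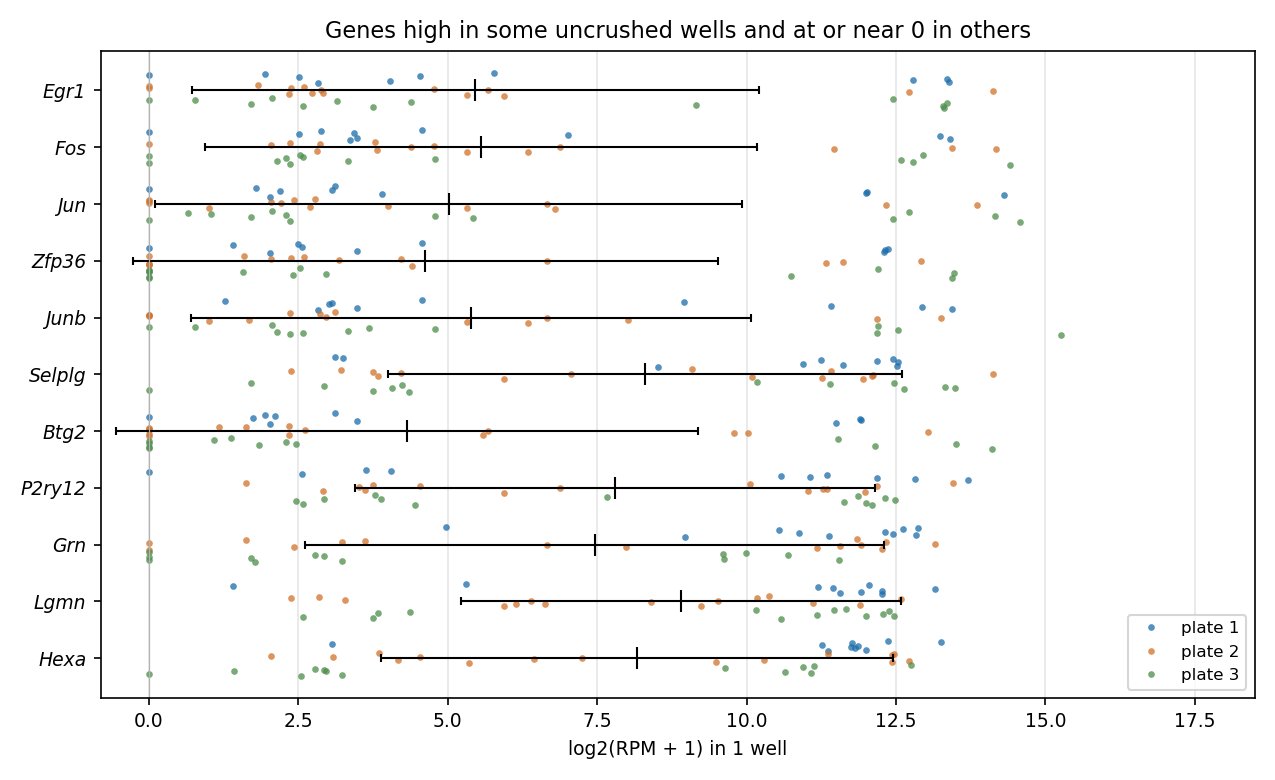
Log2(RPM + 1) in each of 38 uncrushed wells (points, coloured by plate) for 11 of the 12 named genes found in 25% to 75% of wells that were highest where found, with the mean (tick) and SD (bar). Egr1, Fos, Jun, Zfp36, Junb and Btg2 form a small high group, drawn from all 3 plates, apart from a larger group near 0, while Selplg, P2ry12, Grn, Lgmn and Hexa divide the wells more evenly.

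The same wells held these genes together. A well held 0 to 16 of the 21 immediate early genes, and 10 wells held 10 or more, 1 held 8 and the other 27 held 4 or fewer. The 10 wells were 3 on plate 1, 3 on plate 2 and 4 on plate 3. In them the list took 1.3% to 13.6% of all reads. Over all 38 wells the summed level of the list ran from 2.85 to 136039 RPM with a median of 182. 1 of the 10 was well A6 of plate 2, where Fos had 2817 RPM but Jun 15.1 and Egr1 5.66 RPM. Over the 38 wells, thinned to equal depth, the median Spearman correlation between members found in at least 25% of wells was 0.74 and the median over all pairs of the 1232 compared genes was 0.06. Jun and Fos were both found in 10 wells, and neither was found in 24. The 10 wells with 10 or more members had 154919 to 1303010 reads. They had 1043 to 4244 genes in drawn reads, above the median of the kept wells in 9 of the 10. Their ribosomal protein share was 0.983% to 4.77%, under the median of 4.11% in 8, and their mitochondrial-like share 0.768% to 8.59%, under the median of 5.38% in 8. Over the 38 wells, Jun and Cst3 had a Spearman correlation of -0.44, and Junb and Cst3 one of -0.47. The part of these measures in the result was not tested. Jun was the highest named gene in well A6 of plate 1, at 20217 RPM, and Junb in well A1 of plate 3, at 39207 RPM, wells named after their values were seen.

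Interferon-response genes were also concentrated in few wells. Ifitm3 was found in 12 wells, Ifi27l2a in 14 and Bst2 in 11, and these 3 were the only members of the 22-gene list found in at least 25% of wells. A well held 0 to 19 members with a median of 1. Wells C4 of plate 3, B2 of plate 2 and A5 of plate 3, named after their values were seen, held 19, 18 and 10 members, and the others held 5 or fewer. These 3 wells also held 16, 16 and 13 immediate early genes, and 4244, 2644 and 2429 genes in drawn reads, above the median of 1184, and the part of that number in the result was not tested.

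Spread was judged at a given level, as the SD over wells minus the running median SD of the compared genes nearest in mean. Above a mean of about 7 all genes share 1 such window, so the most abundant genes are set against the SD of less abundant ones. By this measure Ckb, a creatine kinase, Grn, the lysosomal protein progranulin, Asah1, an acid ceramidase, and Jun were among the 10 widest named genes. Ckb had 0, 936 and 19999 RPM as its lowest, median and highest values, and an SD of 4.69. Grn had 0, 784 and 9095 RPM and an SD of 4.84. The narrowest included Tmsb4x, Cst3, Fth1 and Gclm, the modifier subunit of glutamate-cysteine ligase, at an SD of 2.46, and the near-identical genes H2-Q4, H2-Q10, H2-T22 and H2-Q2, at 1.90 to 2.39, whose reads cannot be assigned with certainty. The value of Gclm is uncertain too, since it shares 296 exon bases with Gm17494 and 244 with Gm6061, whose median levels were 111 and 105 RPM, against 57.1 RPM for Gclm. The median SD of ribosomal protein genes was 3.66, of microglia identity genes 4.29 and of immediate early genes 4.68, each over the members found in at least 25% of wells, beside 3.33 for all compared genes. These SDs are not adjusted for level. As SD minus the running median, the medians of the 3 lists were 0.16, 0.81 and 1.09. Other lists were also wide, with 0.85 for lysosomal genes and 0.91 for tetraspanin and surface adhesion genes, while complement genes had -0.32 and iron genes -0.06. A wide spread was thus not particular to identity or immediate early genes. Both 3.33 and the running median were taken over all 1232 compared genes, of which 543 were of pseudogene types. The lists were not set against protein coding genes alone, and the part of the pseudogenes in these values was not tested.

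**Figure D4:**
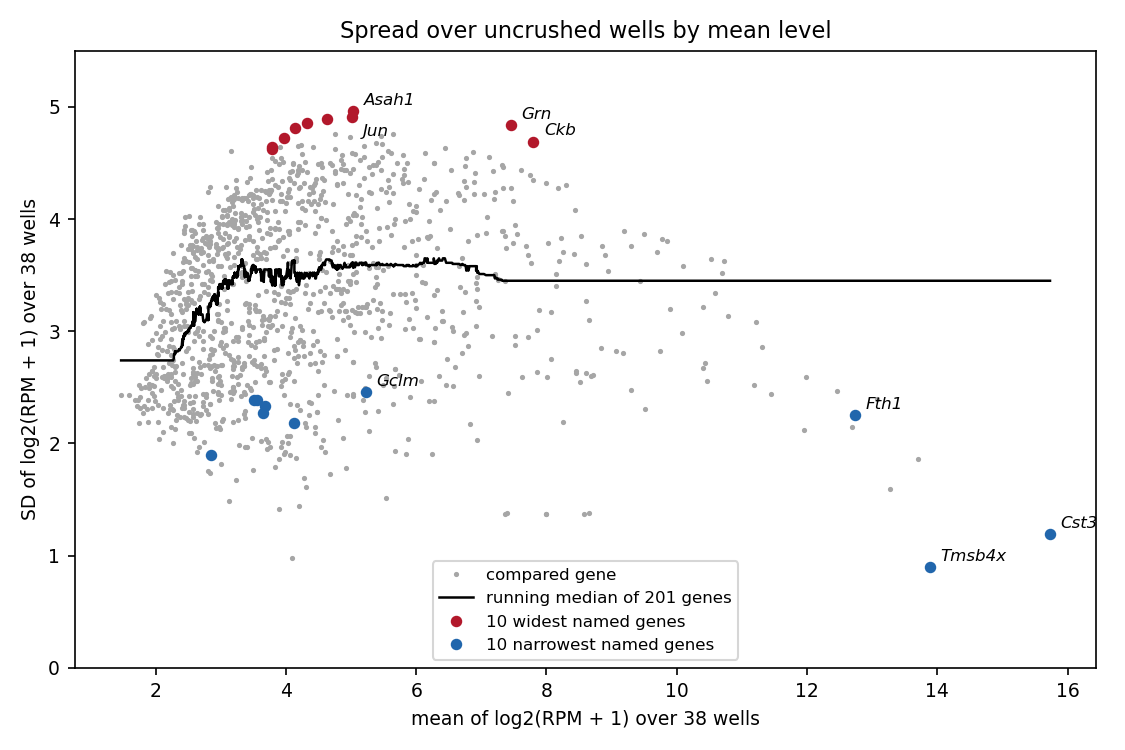
SD against mean of log2(RPM + 1) over 38 uncrushed wells for the 1232 compared genes (grey), with their running median (line) and the 10 widest (red) and 10 narrowest (blue) named genes. Cst3 and Tmsb4x combine the highest means with SDs of 1.19 and 0.90, while Grn and Ckb lie at 4.84 and 4.69.

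The 3 plates were compared as each plate's mean log2(RPM + 1) minus the mean of the other 2, with a difference of 1 or more counted. Of the 1232 compared genes, 62.7% passed this in at least 1 plate, so a difference of this size was common. Plate 1 had 20.1% of genes higher and 16% lower, plate 2 had 10.8% higher and 28.2% lower, and plate 3 had 24.5% higher and 13.5% lower. The median difference over these genes was 0.12 for plate 1, -0.40 for plate 2 and 0.27 for plate 3, and plate 2 also had the fewest genes per well in drawn reads. Of the 24 leading genes, 7 were higher and 1 lower on plate 1, 2 higher and 7 lower on plate 2, and 3 higher and 3 lower on plate 3. For plate 1 that is 7 of 24 against a background of 20.1%, and for plate 2, 7 of 24 against 28.2%. The 24 leading genes of the 3 plates taken separately had 17 members in common.

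Cst3 and Tmsb4x were the highest and next highest named genes on all 3 plates. Cst3 averaged 15.47 ± 1.04 on plate 1, 16.11 ± 1.38 on plate 2 and 15.48 ± 1.03 on plate 3 (SD over 10, 15 and 13 wells), and Tmsb4x 13.81, 13.98 and 13.80. These means lay within 1 SD of each other. Further down, C1qc averaged 12.52 ± 0.81 on plate 1, 9.55 ± 3.78 on plate 2 and 10.89 ± 2.95 on plate 3, and was present at 10 or more reads in 10, 13 and 11 wells. Serinc3, a membrane protein gene, averaged 11.75, 8.95 and 9.21.

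**Figure D5:**
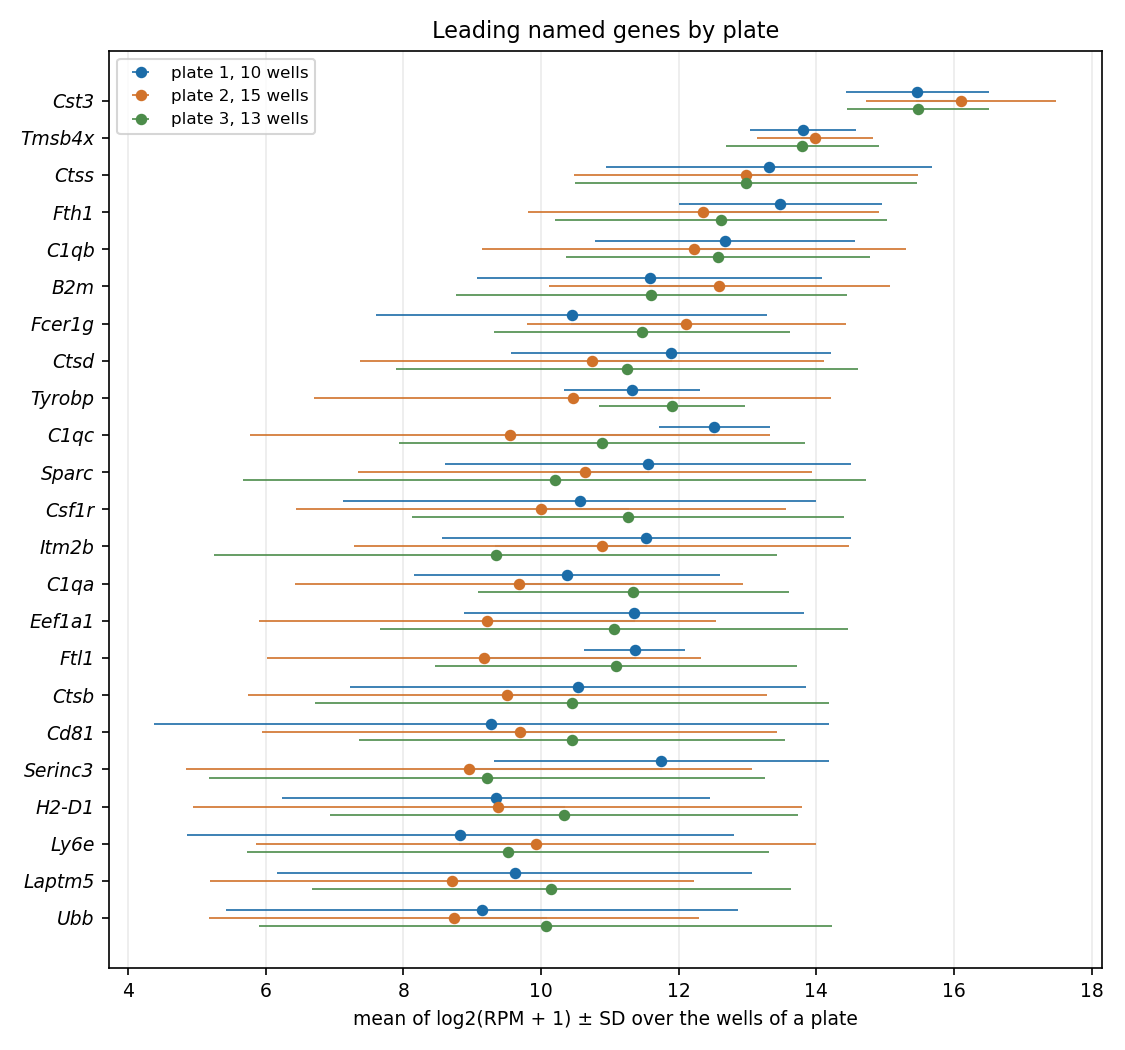
Mean log2(RPM + 1) with SD over wells for 23 of the 24 leading genes on each plate of uncrushed wells. Cst3 and Tmsb4x sit together on all plates, while C1qc and Serinc3 are highest on plate 1, with SD bars of the plates that overlap.

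Lysosomal genes were among those that differed most between plates. Of the 6 named genes highest on plate 1, Grn, Hexa and Ctsa are lysosomal, and the others were Tmem109, Cope and Litaf. Grn averaged 10.98 ± 2.45 on plate 1, 7.32 ± 5.02 on plate 2 and 4.92 ± 4.58 on plate 3, and 9, 8 and 5 wells of the plates held it. Hexa, which encodes a lysosomal enzyme subunit, averaged 11.05, 7.86 and 6.31, found in 9, 10 and 6 wells. Ctsa, the protective protein of lysosomal sialidase, averaged 7.63, 3.55 and 3.96. Of the 16 lysosomal genes found in at least 25% of wells, 8 were higher and 3 lower on plate 1. Of all compared genes, 20.1% were higher and 16% lower there. On plate 3, 3 of the 16 were higher and 7 lower, beside 24.5% and 13.5% of all compared genes. Those shares include genes of pseudogene types, and shares of protein coding genes alone were not taken. The shift on plate 1 was not particular to lysosomal genes. Of the 15 microglia identity genes found in at least 25% of wells, 7 were higher and 2 lower there, beside the same 20.1% and 16%. On plate 3 the elongation factor gene Eef2 averaged 8.48 ± 4.08, against 5.76 ± 4.12 on plate 1 and 4.69 ± 4.58 on plate 2, and the chemokine gene Ccl6 averaged 3.22 ± 4.16, against 7.18 ± 4.05 and 7.29 ± 3.76. These differences were close to the SDs over wells or below them. Hprt, a purine salvage enzyme gene, was highest on plate 2, at 6.63 against 3.84 on plate 1 and 1.75 on plate 3. Plates differ in the wells they hold and may differ in the animals, and these cannot be told apart.

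Transcripts of other cell types were present in a minority of wells at the level of 3 or more markers. Rod photoreceptor markers reached 3 in 4 of 38 wells, or 10.5% (2.94 to 24.8%), 3 of them on plate 1, and each of these 4 wells held 4 of 13 rod markers beside 3 to 10 microglia markers. The summed level of the rod list ran from 0 to 5724 RPM with a median of 5.16. Border macrophage markers reached 3 in 1 well. Monocyte, lymphocyte, cone, bipolar, ganglion cell, Mueller glia, endothelial and the remaining lists reached 3 in 0 wells, which allows a share of up to 7.89% by 3 counts of 38 and of up to 9.25% by the exact interval. Neutrophil markers also reached 3 in 0 kept wells, but the rule had removed wells high in S100a8 and S100a9, so this sets no limit on neutrophils among the uncrushed wells. At least 1 cone marker was found in 23 wells, with a summed level of up to 3906 RPM, and at least 1 Mueller glia marker in 16, with up to 5972 RPM. No well held more than 2 markers of either list. In all wells, 3 of 6 cone and 3 of 7 Mueller glia markers had 0 reads. Gngt2 and Pde6h of the cone list and Glul of the Mueller glia list were each found in at least 25% of wells. These counts therefore rest on few genes and do not show cone or Mueller glia RNA in these wells. Without the 4 wells that held 3 or more rod markers, 23 of the 24 leading genes were shared, and 838 genes, or 70% of those compared, had a plate difference of 1 or more. The part of the transcripts of the cone and Mueller glia lists was not tested. All 8 T or natural killer cell markers and all 5 red blood cell markers had 0 reads in all wells. Xist, the transcript of the inactive X chromosome, had 0 reads in all 38 wells. At least 1 of 4 Y-linked genes had any read in 22 wells and 10 or more reads in 10.

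Set beside wells kept by the same rule after crush, the uncrushed wells held the most Cst3. Its mean log2(RPM + 1) was 15.73 ± 1.19 in 38 uncrushed wells, 14.57 ± 0.96 in 19 wells at day 2 and 13.64 ± 1.41 in 22 wells at day 4, with medians of 66729, 26614 and 16903 RPM. The means had the same order within each plate, at 15.47 ± 1.04, 14.60 ± 0.95 and 13.42 ± 1.29 on plate 1. On plate 2 they were 16.11 ± 1.38, 14.42 ± 1.47 and 14.25 ± 0.70 (SD over 15, 4 and 10 wells). Days 2 and 4 of plate 2 differed by less than either SD. On plate 3 the means were 15.48 ± 1.03, 14.62 ± 0.79 and 11.74 ± 3.29, where day 4 had 2 wells. Tmsb4x had medians of 16659, 19874 and 17034 RPM. The leading 24 of the uncrushed wells shared 19 genes with the leading 24 at day 2 and 17 with those at day 4. Over the 24 genes the median SD was 3.18 in uncrushed wells, 1.91 at day 2 and 2.23 at day 4, and only 2 genes at day 2 and 3 at day 4 had a larger SD than in uncrushed wells. The groups differed in depth and in genes shown: median reads were 494741, 787377 and 861829, and median genes in drawn reads 1184, 1839 and 2212, and the part of either in the smaller SD or in the order of Cst3 was not tested. Within the uncrushed wells, Cst3 and genes in drawn reads had a Spearman correlation of -0.40. Of the day 4 wells, all 18 of plate 1 carry a treatment label of day 2 and were placed by their titles, so the plate 2 and plate 3 values are those without this conflict. Each group filled its own rows of every plate and had no replicate, so group and row cannot be told apart. Il1a was found in 9 of 38 uncrushed wells, 6 of 19 at day 2 and 11 of 22 at day 4, and Gpr84 in 5, 6 and 12.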

How the data were processed

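cDNA of each sorted cell was amplified and tagmented, per the labels' protocols. The submitters' processing notes name Trim Galore 0.4.4, cutadapt 1.16, Trimmomatic 0.36, featureCounts 1.6.1 and STAR 2.7.2b, and the build GRCm38.p6 (mm10), which is the build of all coordinates here. The authors deposited FPKM values for 55364 genes with the gene length in bases. No molecular identifiers are described, so reads are not independent molecules and intervals cover counting error only. Whether strand was used in counting is not given in the sources used here.

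RPM was computed as FPKM × length / 1000, and a well's reads as 1000000 divided by its most frequent RPM above 0 (6 digits). Of the recovered values under 100 reads, 36.5% were whole numbers of reads (within 0.01), so most are fractional and no count model was used. Doublets were not called. Levels are log2(RPM + 1). No test was made, because no label names an animal. Shares have 95% exact Clopper-Pearson intervals. For equal depth, 50000 reads were drawn at random from each well. Nuclear models like mitochondrial transcripts were found with blastn 2.17.0. The genes named were the 24 highest by mean, the 10 widest and 10 narrowest in spread, 12 on-off genes, the 6 highest and 6 lowest differences of each plate, markers, listed genes, and Gpr84, Tnf, Il1a, Rhoa, Rock1 and Rock2. Left out of named genes were unnamed models, ribosomal protein genes and pseudogenes. Members and lists were chosen with earlier results of these data known. The plate and spread measures were run on simulated counts with known changes. Unchanged genes were simulated at a fixed spread and not at that of these wells. The simulation therefore gives no error rate for the plate differences or spreads reported here. Some of the genes that these rules name are not reported here.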

Additional observations from a re-analysis of the deposited data

Results flagged for a closer look

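The uncrushed well left out by the neutrophil rule, well C5 of plate 1, had 43557 RPM of S100a8 and 44210 RPM of S100a9, against at most 205 and 212 RPM in the 38 kept wells. It held 1352154 reads, 6 of 10 neutrophil markers and 4 of 12 microglia markers, and its Cst3 value was 2113 RPM, below the lowest kept well at 5170 RPM.

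The 15 uncrushed wells under the depth minimum, with 970 to 14205 reads, entered no result of the report, though 10 of them enter the alternative with no depth minimum. Cst3 had a median of 18769 RPM in the 15, against 66729 RPM in the kept wells. The 5 that do not enter had S100a8 and S100a9 both at 1000 RPM or more, at depths of 2082 to 4974 reads.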

How the results depend on the processing

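With 1 sample and no named animal, the values describe these wells, and depth limits which genes can be found in a cell. The means of the 24 leading genes moved by less than their SD over wells in all 408 comparisons with an alternative, and their SDs by less than 1.5 times in 404. That SD had a median of 3.18 over the 24 genes, so it is a wide limit. Counting a gene as found at 3 reads or at any read cannot move a mean, an SD, the ranking or a plate difference. The outcome of those alternatives for these measures was therefore fixed in advance. Spread was less stable over the 669 genes of the gene table, whose SD moved by over 1.5 times for 327 with a pseudocount of 10, 103 with FPKM, 49 with a minimum of 500000 reads and 47 with each well thinned. The ranking shared at least 21 of its 24 genes with every alternative. The 36 named plate differences, of which 24 have a value with a plate left out, reversed under 0 of the alternatives, and 1 fell below the size counted, Evl on plate 1, which was -0.60 with no depth minimum and -2.90 as reported. Counts depended on depth and on the reads that count a gene as found. The number of genes found in at least 90% of wells was 22, and became 53 at 3 reads, 223 at any read, 94 with a minimum of 500000 reads, 8 with no minimum, 11 with each well thinned, 55 without plate 2 and 50 in the 29 wells with 3 or more microglia markers, an alternative chosen after seeing the data. The number found in every well was 12, and became 69 at any read, 43 with the minimum of 500000 reads, 2 with no minimum and 3 thinned. The number found in at least 25% of wells was 1232, and became 4015 at any read, 2076 with the minimum of 500000 reads and 490 thinned. The median of genes found per well was 1003, and became 3048, 1549 and 529 under the same changes. The number of genes with a plate difference of 1 or more was 773, and became 1786, 1638 and 377 under these, 452 with a pseudocount of 10 and 461 without plate 3. As a share of the genes compared, that is 62.7% as reported, 44.5% at any read, 78.9% with the minimum of 500000 reads, 76.9% thinned, 36.7% with the pseudocount of 10 and 44% without plate 3. A pseudocount of 10 also moved the means of 219 of the 669 genes in the gene table by an SD or more. The cause of these moves was not tested. No paired analysis was possible because the wells count as 1 sample with no test.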

Other observations

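Both ferritin chains, which store iron, were found in nearly all uncrushed wells. Fth1, the ferritin heavy chain, had 31.5, 9429 and 39878 RPM as its lowest, median and highest values, and Ftl1, the light chain, was found in 35 of 38 wells with a median of 2157 RPM. Trf, which encodes the iron carrier transferrin, was found in 24 wells and reached 24246 RPM, while the transferrin receptor gene Tfrc had 0 reads in all 38 and the iron exporter gene Slc40a1 was found in 3. Of 10 iron genes, 8 were found in at least 1 well and 4 in at least 25%.

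Some accessory genes of Toll-like receptors were found more widely than the receptor genes. Ly86, a partner of the receptor-like protein Cd180, was found in 27 wells with a median of 1091 RPM, Unc93b1, which carries Toll-like receptors to endosomes, in 20, and the co-receptor gene Cd14 in 12. Tlr2 was found in 2 wells and Tlr4 in 1. Ly86, Unc93b1 and Cd14 were the only 3 of the 15 listed genes found in at least 25% of wells. Other accessory genes of the list, such as Ly96 and Myd88, fell below that, as all the receptor genes did.

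Genes of the actin cytoskeleton were all found, 22 of 22 in at least 1 well and 18 in at least 25%. Actb was found in 32 wells with a median of 1051 RPM and Cfl1, an actin-severing protein, in 32 with 1072 RPM. Rhoa, a small GTPase that controls actin, was found in 17 wells, and the genes of its kinases, Rock1 and Rock2, in 3 each. All 18 glycolysis genes were found in at least 1 well and 7 in at least 25%, with Gapdh in 24 wells, Aldoa in 13 and Ldha in 10.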
